A study of Homo sapiens with 7 samples.

Results

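The promoter contacts of 7 genes of the ETS transcription factor family were followed in 3 human cancer cell lines. The genes were SPDEF, ELF3, ELF5, EHF, ETV1, ERG and ETS2, which are 7 of the 20163 protein-coding genes that were measured and 7 of the 28 genes of the ETS family. They were taken by name, and their contacts were the loops of each cell line with an anchor over a 500 bp window centred on any annotated start site of the gene. A loop is a pair of different DNA regions, called anchors, that were joined by sequenced read pairs. By this definition the 7 genes held 30 of the 163530 Ishikawa loops, 64 of the 42027 T-47D loops and 140 of the 149226 LNCaP loops, together 234 of 354783.

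ETS factors share a DNA-binding domain that recognises a short sequence with the core GGAA. SPDEF is a factor of luminal and secretory epithelium that was first described in the prostate. ELF3, ELF5 and EHF form a subfamily of factors found mainly in epithelia, and ELF5 is known for its part in the formation of the milk-producing alveoli of the breast. ETV1 and ERG are activated by gene fusions in prostate cancer, where ERG is most often joined to the androgen-regulated gene TMPRSS2, and ETS2 is a broadly expressed member that acts below growth factor signalling.

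H3K27ac HiChIP enriches chromatin contacts of DNA that carries acetylated lysine 27 of histone H3, a mark of active promoters and enhancers. The study made such maps to link distal regions to the genes they contact in estrogen-responsive and other hormone-responsive cancer cells. Ishikawa is an endometrial adenocarcinoma line, T-47D a ductal carcinoma line of the breast and LNCaP a prostate carcinoma line, with 4, 1 and 2 samples, and no label gives a genetic modification of any of them. Of the Ishikawa samples, 2 received DMSO as the vehicle and 2 received 10 nM 17beta-estradiol (E2), each for 1 hour, whereas the labels give no treatment for T-47D and LNCaP. Each line was deposited as 1 loop list, in which the DMSO and E2 samples of Ishikawa are combined, so E2 and DMSO were not compared and no value has a replicate error. The Ishikawa list held 1040329 read pairs, that of T-47D 351260 and that of LNCaP 1805322, and the lowest count of a loop was 3 in each. Chromatin of Ishikawa was cut with DpnII and that of the other lines with MboI, which both cut at GATC. Sonication, sequencing depth and read length also differed between Ishikawa and the other lines. Where Ishikawa is set against another line, enzyme and these settings cannot be told apart from the line.

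The labels were checked against 3 marker genes per line. KLK3, TMPRSS2 and HOXB13, which mark prostate cells, had 1056 to 3243 promoter read pairs in LNCaP and 0 to 231 in the other lists. The breast markers GATA3 and TFAP2A had 1063 and 131 in T-47D. GATA3 had 7 in Ishikawa and 0 in LNCaP, whereas TFAP2A had 3 in Ishikawa and 109 in the deeper LNCaP list. The luminal keratin gene KRT18 had 0 in T-47D against 266 in Ishikawa and 253 in LNCaP, which goes against the label. The endometrial markers PAX8, EMX2 and HOXA10 had 88 to 162 in Ishikawa and 0 in the other lists, apart from 68 for HOXA10 in LNCaP.

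Promoter sequences of 4 of the genes are shown, those of SPDEF, EHF and ETV1 because their loops were stronger in T-47D and LNCaP than in Ishikawa and that of ERG because it had none. The ELF3 and ELF5 windows, which hold many bases annotated as exon, are not shown. Each is the 250 bases before a RefSeq start site, from a RefSeq table of build GRCh38.p14 that was placed on GRCh37 by exact match, and all are given on GRCh37. Capitals mark GGAA, or TTCC where the core lies on the other strand. The SPDEF promoter (chr6:34524107-34524356, minus strand), of which 4 bases are annotated as exon in GENCODE, lay under a loop anchor in T-47D and LNCaP but not in Ishikawa. The EHF promoter (chr11:34645554-34645803, plus strand) is an internal start of the gene that was under an anchor in LNCaP only. The ETV1 promoter (chr7:14031051-14031300, minus strand) was under an anchor in T-47D and LNCaP, and the ERG promoter (chr21:40032592-40032841, minus strand) was under none.
SPDEF: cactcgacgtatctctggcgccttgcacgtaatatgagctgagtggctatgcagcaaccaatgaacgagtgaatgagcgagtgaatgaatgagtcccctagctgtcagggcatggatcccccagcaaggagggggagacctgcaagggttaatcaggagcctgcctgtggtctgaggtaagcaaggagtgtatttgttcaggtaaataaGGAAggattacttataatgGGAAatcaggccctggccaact
EHF: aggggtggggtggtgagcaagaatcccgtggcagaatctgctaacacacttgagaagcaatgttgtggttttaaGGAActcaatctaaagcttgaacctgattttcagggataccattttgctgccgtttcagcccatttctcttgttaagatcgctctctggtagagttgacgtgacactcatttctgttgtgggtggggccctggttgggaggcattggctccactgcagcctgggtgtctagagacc
ETV1: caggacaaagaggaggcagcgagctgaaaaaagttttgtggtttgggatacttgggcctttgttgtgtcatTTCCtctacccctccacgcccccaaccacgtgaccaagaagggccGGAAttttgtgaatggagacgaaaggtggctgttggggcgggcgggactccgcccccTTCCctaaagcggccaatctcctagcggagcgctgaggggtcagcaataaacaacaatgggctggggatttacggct
ERG: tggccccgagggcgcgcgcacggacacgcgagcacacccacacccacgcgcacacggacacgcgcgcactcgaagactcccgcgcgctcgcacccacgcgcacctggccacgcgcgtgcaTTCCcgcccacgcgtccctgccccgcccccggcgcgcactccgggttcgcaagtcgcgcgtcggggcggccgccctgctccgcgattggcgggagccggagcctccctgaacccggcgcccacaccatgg
Counting both strands, GGAA occurred 2 times in the SPDEF promoter, 1 time in EHF, 3 times in ETV1 and 1 time in ERG. This core is common, as 92.7% of 35116 RefSeq promoters of the same length held it. The longer ETS site CCGGAAG, which contains GGAA, was in 8.52% of all promoters and in none of the 17 RefSeq promoters of the 7 genes. The forkhead site TGTTTAC was in 2.98% of all promoters and in 2 of the 17, an ELF5 promoter and a second EHF promoter, which are not shown. Content of G and C was 50.8% in the SPDEF promoter, slightly lower in EHF, 56.0% in ETV1 and 77.2% in ERG, against a median of 58% over all promoters.

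SPDEF, EHF and ETV1 were contacted more in the breast and prostate lines than in the endometrial line, ELF3 was contacted in all 3 lines, ELF5 only in T-47D, and ERG in none. Of the 7 genes, 3 had a promoter loop in the Ishikawa list and 5 in each of the other lists. Over all protein-coding genes the share with a promoter loop was 57.3% for Ishikawa, 49.2% for T-47D and 58.1% for LNCaP. The same genes had a linked distal anchor, which is an anchor over no promoter that is joined to a promoter of the gene, against 52.5%, 34.7% and 52.4% of all genes. The median of the 7 genes was 0 promoter read pairs for Ishikawa, 51 for T-47D and 320 for LNCaP, and the median of all genes was 4, 0 and 13. The lists differ in depth, so levels are given below as read pairs per 100000 read pairs of the list, with the exact 95% binomial interval, which covers counting error only. A read pair count depends on both the acetylation of the anchors and their contact, which cannot be told apart in these data.

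**Figure D1:**
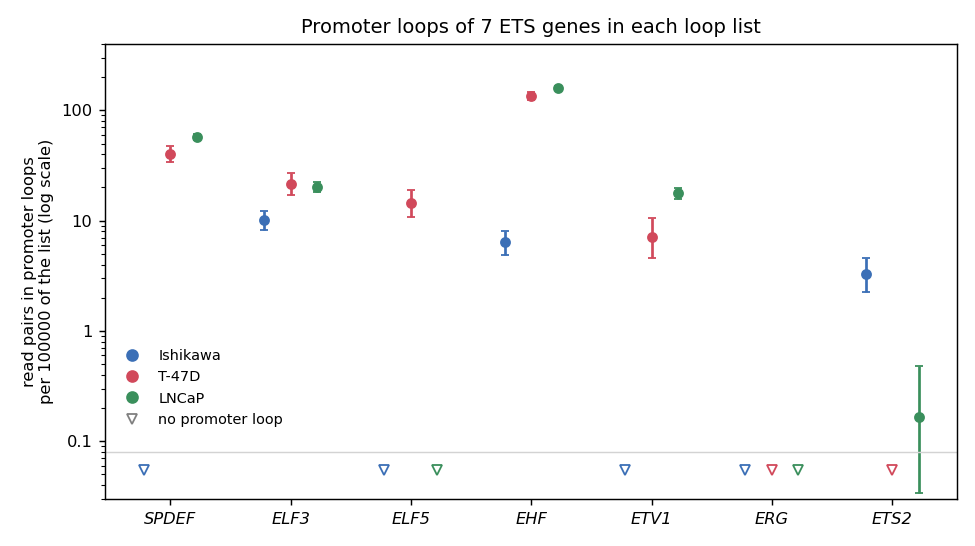
Promoter-loop read pairs of the 7 ETS genes per 100000 read pairs of the Ishikawa, T-47D and LNCaP lists, on a log scale. Points are the measured shares, bars are exact 95% binomial intervals of counting error, and open triangles mark genes with no promoter loop; EHF was at 135 in T-47D and 159 in LNCaP but at 6.34 in Ishikawa, and ERG had no loop in any list.

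SPDEF, the luminal factor, had no promoter loop in the Ishikawa list, 10 loops with 141 read pairs in T-47D and 38 loops with 1028 read pairs in LNCaP. The T-47D level was 40.1 per 100000 (33.8 to 47.3) and the LNCaP level was 56.9 (53.5 to 60.5). SPDEF thus ranked high among protein-coding genes in both lines, at percentile 97.0 in T-47D and 98.9 in LNCaP. In Ishikawa its surroundings were not bare, since 120 loops with 867 read pairs had both anchors within 500 kb of the gene.

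The contacts of SPDEF differed in place between the breast and prostate lines. In T-47D, 6 distal anchors with 124 read pairs were linked, and 76 of these read pairs went to 2 anchors within introns of the gene. The strongest was chr6:34519309-34521435, an intron of SPDEF 3.74 kb downstream of the 5′ end, with 53 read pairs. It was followed by chr6:34499797-34506915 at 20.8 kb, over exons of SPDEF and PACSIN1, with 34 and by chr6:34512478-34514047, an intron of SPDEF at 10.8 kb, with 23. In LNCaP, 25 distal anchors with 858 read pairs were linked, of which 13 upstream of the gene held 557 and 12 downstream held 301. The strongest, chr6:34558730-34573180, lay 41.8 kb upstream in an intron of ILRUN, a regulator of inflammatory signalling, and had 396 read pairs. The next were chr6:34501241-34509236 at 18.9 kb downstream, again over SPDEF and PACSIN1, with 182 and chr6:34574997-34578763, also in an intron of ILRUN, with 58. The downstream anchor over PACSIN1 was therefore found in both lines, whereas anchors inside ILRUN were linked in LNCaP only. Contacts over more than 100 kb made up 18 of 25 distal anchors in LNCaP and 1 of 6 in T-47D. Apart from an anchor 102 kb upstream with 43 read pairs, those of LNCaP had 13 read pairs or fewer. That is below 16, the LNCaP count that matches the T-47D minimum of 3 for depth. The difference in far anchors therefore also depends on the depth of the lists. The promoter anchor of LNCaP was 15.7 kb wide and covered both intron anchors of T-47D, where it was 1.77 kb, so contacts of the promoter with those introns could not be seen in LNCaP.

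**Figure D2:**
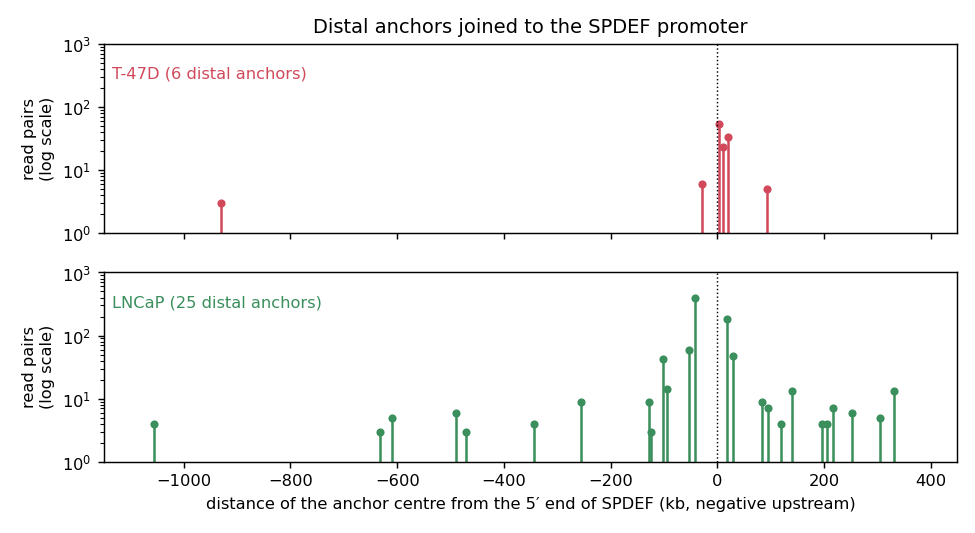
Read pairs (log scale) of each distal anchor linked to the SPDEF promoter in T-47D and LNCaP, against the distance of the anchor centre from the 5′ end of the gene in kb, negative upstream. Each stem is 1 anchor; the 3 tallest T-47D stems stand at 3.74 to 20.8 kb downstream, whereas the tallest LNCaP stem, with 396 read pairs, stands 41.8 kb upstream.

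Promoters of other genes took a small part of the SPDEF contacts. In T-47D they were 4 loops with 17 read pairs, led by PACSIN1 with 6, ANKS1A with 4 and RPS10 with 4. In LNCaP they were 13 loops with 170 read pairs, led by BLTP3A, RPS10 and RPS10-NUDT3 with 28 each, the last pair having start sites that adjoin. The protein-coding genes whose levels over the 3 lists were closest to SPDEF, by Euclidean distance of log10(share per 100000 + 1), were TOB1, H4C11, TRAF7, DHRS13 and CHD3. TOB1, a gene of an antiproliferative protein, was nearest at a distance of 0.0712 and had 0, 164 and 956 read pairs in Ishikawa, T-47D and LNCaP. This likeness rests on 3 values per gene.

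ELF3, an epithelial factor of barrier tissues, was contacted in all 3 lines and mostly from its downstream side. It had 105 read pairs over 11 loops for Ishikawa, 76 over 7 for T-47D and 368 over 20 for LNCaP. Its level was 10.1 per 100000 (8.26 to 12.2) for Ishikawa, 21.6 (17.0 to 27.1) for T-47D and 20.4 (18.4 to 22.6) for LNCaP. The T-47D and LNCaP intervals overlapped and that of Ishikawa was below both, and the gene stood at percentile 94.6, 92.1 and 94.6. Distal anchors downstream of ELF3 held 89 of the 95 distal read pairs of Ishikawa, 64 of 64 of T-47D and 291 of 297 of LNCaP.

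The downstream anchors of ELF3 recurred between lines. The T-47D anchors at 10.4, 26.5 and 38.9 kb from the 5′ end each overlapped an anchor linked to ELF3 in LNCaP and another in Ishikawa. The nearest of these, at the 3′ end of the gene, had 13 read pairs in T-47D (chr1:201986299-201988580) and 148 in LNCaP (chr1:201985175-201989622), and it met a wider anchor with 28 in Ishikawa (chr1:201987076-201998836). A farther anchor, upstream of the receptor gene GPR37L1, was the strongest in Ishikawa with 32 read pairs at 104 kb (chr1:202073552-202088817) and in T-47D with 19 at 106 kb (chr1:202081872-202083548). LNCaP had 39 read pairs at 111 kb (chr1:202087025-202088602), which met the Ishikawa anchor but not that of T-47D. Promoter partners were GPR37L1 with 7 and TIMM17A with 3 read pairs in Ishikawa, RNPEP with 7 in T-47D, and RNPEP with 10 and IPO9 with 9 in LNCaP. RNPEP, an aminopeptidase gene, was thus a partner in both T-47D and LNCaP.

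**Figure D3:**
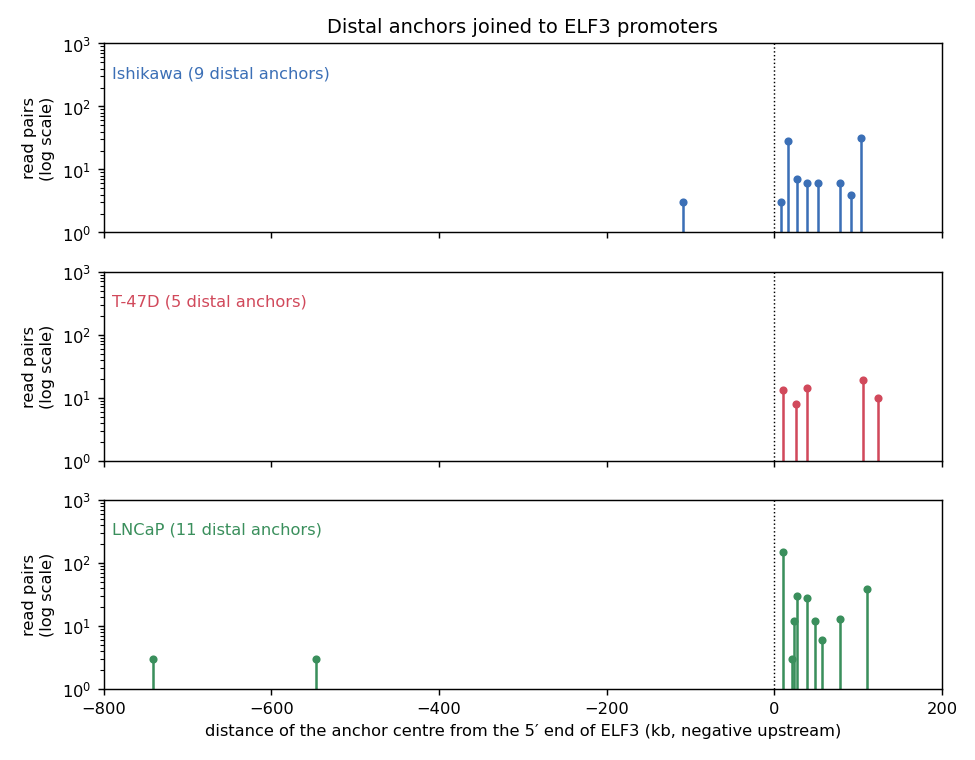
Read pairs (log scale) of each distal anchor linked to ELF3 promoters in Ishikawa, T-47D and LNCaP, against distance of the anchor centre from the 5′ end of the gene in kb, negative upstream. Each stem is 1 anchor; the T-47D stems at 26.5 and 38.9 kb have counterparts within 2 kb in both other lists, and nearly all stems stand downstream.

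EHF, which is expressed in epithelia and lies next to ELF5 on chromosome 11, had the most promoter read pairs of the 7 genes in T-47D and LNCaP. It had 66 read pairs over 12 loops for Ishikawa, 474 over 37 for T-47D and 2875 over 60 for LNCaP. Its level was 6.34 per 100000 (4.91 to 8.07) for Ishikawa, 135 (123 to 148) for T-47D and 159 (153 to 165) for LNCaP. Only 46 of all protein-coding genes in T-47D and 27 in LNCaP had more promoter read pairs, and EHF took part in 64.1% and 62.6% of the read pairs of the 7 genes in these lists, with a loop between 2 of the genes counted once. In Ishikawa it was at percentile 89.7, below ELF3. The lead of EHF in T-47D depended on the start sites and anchors counted. With only the 5′ end of each gene, EHF was at 20.2 per 100000 there and SPDEF at 40.1. Per kb of promoter anchor, EHF had 43.7 read pairs in T-47D, below SPDEF with 79.5 and ELF3 with 48.6. In LNCaP, EHF led by both measures.

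The listed EHF contacts took a different form in each line, and so did the anchors over its start sites. In T-47D, 3 loops with 196 read pairs joined start sites of EHF itself, and 1 of these held 152 read pairs, with 39 loops of the whole list above it. The distal anchors of T-47D held 190 read pairs, led by chr11:34674139-34675946 in an intron of EHF with 65, chr11:34591337-34593363 between ELF5 and EHF with 51, and chr11:34612960-34616844 with 19. In LNCaP the 11 start sites lay under a single anchor of 39.1 kb. It covered all promoter anchors of EHF in T-47D and the leading intron anchor there, so contacts among these could not be seen in LNCaP. The strongest partner of the LNCaP anchor, chr11:34682888-34696103, began in the last part of EHF and reached beyond the 3′ end. That loop held 1276 read pairs, or 44.4% of the EHF total, and only 18 loops of the LNCaP list held more. The next anchors, chr11:34603861-34606575 and chr11:34607366-34609072, lay 37.4 kb and 34.4 kb upstream and had 156 and 145. In Ishikawa, anchors covered internal start sites but not the 5′ end of the gene, and no distal anchor had more than 12 read pairs. The leading ones were chr11:34666466-34673055 with 12, chr11:34717410-34726592 with 11 and chr11:34674513-34677971 with 7.

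In LNCaP, 38 of 44 distal anchors of EHF lay over 100 kb away and the farthest at 1544 kb. In T-47D these numbers were 5 of 10 and 1001 kb, and in Ishikawa 2 of 9 and 201 kb. The lists differed in the same order over all loops, with a median span of 113 kb for LNCaP, 85.8 kb for T-47D and 37.0 kb for Ishikawa. Depth also differed between the lists. The LNCaP anchors of EHF beyond 717 kb had 10 read pairs or fewer, below the 16 that match the T-47D minimum of 3 for depth. Among promoters, EHF was joined in LNCaP to APIP with 424 read pairs, PDHX with 250 and SLC1A2 with 85. APIP and PDHX encode a methionine salvage enzyme and a subunit of pyruvate dehydrogenase, and their start sites adjoin. The same partners followed ELF5 in T-47D, where ELF5 had 28 read pairs, APIP 23 and PDHX 23. Ishikawa had no loop from EHF to the promoter of another gene.

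**Figure D4:**
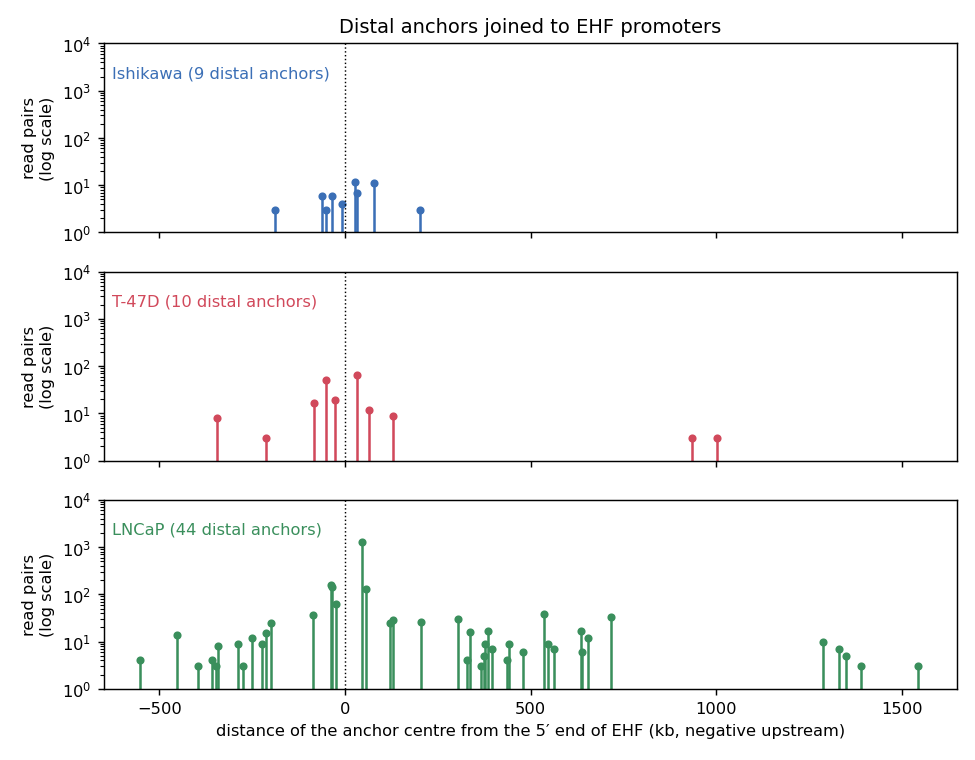
Read pairs (log scale) of each distal anchor linked to EHF promoters in Ishikawa, T-47D and LNCaP, against distance of the anchor centre from the 5′ end of the gene in kb, negative upstream. Each stem is 1 anchor; 9, 10 and 44 anchors were linked, and the tallest stem is the LNCaP anchor with 1276 read pairs at 46.9 kb.

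ELF5, the alveolar factor of the breast, had promoter loops in the T-47D list only, with 51 read pairs in 8 loops. This was 14.5 per 100000 (10.8 to 19.1) and percentile 87.6. The promoter anchor, chr11:34533904-34536886, covered 3 of the 6 start sites of ELF5 and lay inside the gene, away from its 5′ end. Its main partner was its neighbour EHF, since 3 loops with 28 read pairs joined promoters of both genes, whose 5′ ends are 95.9 kb apart. All 3 distal anchors of ELF5 in T-47D were also linked to EHF, among them chr11:34591337-34593363 between the genes, with 7 read pairs to ELF5 and 51 to EHF. The other two, chr11:34558585-34560393 and chr11:34705442-34708334, had 3 read pairs each with ELF5. Among promoters, the glutamate transporter gene SLC1A2 followed EHF with 6 read pairs and APIP with 4. ELF5 had no promoter loop in LNCaP, where 0 loops had an anchor in the body of the gene. Within 500 kb of ELF5, a range that takes in EHF and its loop of 1276 read pairs, 173 LNCaP loops with 4064 read pairs had both anchors. In Ishikawa 52 such loops with 293 read pairs were present, and 2 loops with 10 read pairs had an anchor in the body of ELF5.

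ETV1, a factor of the PEA3 subgroup, was contacted in T-47D and LNCaP and had no loop in Ishikawa. It had 25 read pairs in 5 loops in T-47D and 320 in 21 loops in LNCaP, or 7.12 per 100000 (4.61 to 10.5) and 17.7 (15.8 to 19.8). All of these loops led to distal anchors and none to another promoter. In LNCaP the read pairs were spread evenly compared with the other genes, as the strongest loop held 11.2% of them against 38.5% for SPDEF and 44.4% for EHF. Of the 21 distal anchors in LNCaP, 9 with 176 read pairs were within the gene, led by chr7:13936447-13943163 at 91.2 kb with 36, chr7:13974097-13979937 at 54.0 kb with 31 and chr7:14011841-14014273 at 18.0 kb with 27. In T-47D the leading anchors were chr7:14041279-14044439, 11.8 kb upstream, with 10 and chr7:14019910-14022010 in an intron with 6, while the other 3 had 3 each. LNCaP cells are known to carry a rearrangement of the ETV1 locus with another chromosome. The LNCaP list held no row across chromosomes, and the part of the rearrangement in these values was not tested.

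ERG and its neighbour ETS2 on chromosome 21 were little contacted. ERG had no promoter loop in any list, over 11 start sites. Loops with an anchor in the body of ERG were nevertheless present, 13 with 62 read pairs in Ishikawa and 1 with 4 in LNCaP. ETS2 had 34 read pairs in 7 loops in Ishikawa, or 3.27 per 100000 (2.26 to 4.57), 3 read pairs in 1 loop in LNCaP and none in T-47D. Its 4 distal anchors in Ishikawa were all upstream, led by chr21:40096778-40101955 between ERG and ETS2 with 10 read pairs and chr21:40171661-40175642 with 9. As ERG had no promoter loop, a contact between the promoters of ERG and ETS2 could not appear. In T-47D, no loop had both anchors within 500 kb of either gene.

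Between lists, the ratio of shares was called where it reached 2-fold, a rule of size with no test, and a list without loops was counted as 3 read pairs. A fold against this floor is written as at least that size, and it holds for listed loops only, since loops under 3 read pairs were removed before deposit. In Ishikawa this minimum held within each of the 4 parts of the list, so folds against a 0 of Ishikawa may be smaller than written. With the upper exact 95% limit of a 0 in place of the floor, these folds were smaller, such as 113 in place of 139 for SPDEF between T-47D and Ishikawa, and all stayed past 2-fold. Against T-47D, ETV1 was 2.49-fold higher in LNCaP, and ELF5 was at least 87.4-fold higher in T-47D. SPDEF was 1.42-fold and EHF 1.18-fold higher in LNCaP and ELF3 1.06-fold higher in T-47D, all short of 2-fold. The EHF total of T-47D included 196 read pairs between its own start sites, which the single wide anchor of LNCaP could not show. Of 5 genes that could be compared, 1 was therefore higher in LNCaP and 1 in T-47D, while 23.5% and 36.2% of all 12280 comparable genes were called in these directions. Per kb of promoter anchor, SPDEF had 65.6 read pairs in LNCaP and 79.5 in T-47D, and ETV1 had 18.2 and 10.0. EHF had 73.5 and 43.7 per kb, and ELF3 had 56.5 and 48.6. These counts were not scaled for depth, so their log2 ratios cannot be set against ratios of shares. The log2 ratios were -0.28 for SPDEF, 0.86 for ETV1, 0.75 for EHF and 0.22 for ELF3. The LNCaP list held 1805322 read pairs against 351260 in T-47D, a ratio larger than that of any of these counts. Scaled for depth, each of these genes would thus stand higher in T-47D per kb. The call of ETV1 for LNCaP therefore did not hold per kb. With the 5′ end of each gene as its only start site, ELF5 had no loop in T-47D and its call ended.

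Compared with Ishikawa, most of the genes stood higher in the other lines. In T-47D, SPDEF was at least 139-fold, ELF5 at least 50.3-fold, ETV1 at least 24.7-fold, EHF 21.3-fold and ELF3 2.14-fold higher, and ETS2 was at least 3.83-fold higher in Ishikawa. These were 5 and 1 of 6 comparable genes, beside 51.1% and 24.3% of all genes. In LNCaP, SPDEF was at least 197-fold, ETV1 at least 61.5-fold, EHF 25.1-fold and ELF3 2.02-fold higher, and ETS2 was 19.7-fold higher in Ishikawa from only 3 read pairs in LNCaP. These were 4 and 1 of 5 comparable genes, beside 49.7% and 32.0% of all genes. The ELF3 differences were small beside the spread within the Ishikawa list, which consisted of 4 parts that could not be assigned to samples: ELF3 ranged from 3.72 to 26.7 per 100000 over the parts, which takes in both other lines. EHF ranged from 3.33 to 8.36 over the parts, far below both other lines, and SPDEF, ELF5 and ETV1 had no loop in any part. Under the same restriction to 5′ ends, ELF3 had no loop in T-47D either and its ratio to Ishikawa reversed.

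Distal anchors shared with Ishikawa were mainly those of ELF3, and those shared between T-47D and LNCaP came from EHF, ELF3 and SPDEF. A distal anchor was counted once for each gene it was linked to. An anchor was counted as shared where it overlapped, by 1 bp or more, an anchor linked to the same gene in the other list. Of the 29 distal anchors of the 7 genes in T-47D, 9 (31.0%) were found in LNCaP, against 29.7% over all genes, and of the 102 in LNCaP, 9 (8.82%) were found in T-47D, against 8.55%. Both shares were near those of all genes. Of the 22 in Ishikawa, 9 (40.9%) were found in LNCaP, against 9.73% over all genes, and 6 (27.3%) in T-47D, against 3.80%. In the other direction, 11 of 102 LNCaP anchors (10.8%, against 6.99%) and 6 of 29 T-47D anchors (20.7%, against 9.19%) were found in Ishikawa. ELF3 gave 7 of the 9 Ishikawa anchors found in LNCaP and 4 of the 6 found in T-47D, and EHF gave the other 2 in each case. EHF shared 4 of its 10 T-47D anchors with LNCaP, ELF3 3 of 5 and SPDEF 2 of 6, whereas ETV1 shared 0 of 5. Promoter anchors of LNCaP covered 2 SPDEF, 1 EHF and 1 ETV1 distal anchors of T-47D and 2 EHF distal anchors of Ishikawa, which therefore had no distal counterpart to be counted.

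The other 21 genes of the ETS family gave a background for these counts. Of them, 14 had a promoter loop in Ishikawa and 11 in each of the other lines, and 14, 9 and 9 had a linked distal anchor. Among the 5% of protein-coding genes with the most read pairs were ETV6 in Ishikawa, with 153 read pairs, and ELK4 and ELF2 in LNCaP, with 1545 and 613. None of the 21 was in this range in T-47D, where SPDEF and EHF were, and in LNCaP SPDEF and EHF were in it too. ETV6 is a repressor needed in blood formation, ELK4 a cofactor of serum response factor and ELF2 a factor close to ELF1. Past 2-fold, 5 of 12 comparable genes were higher in LNCaP and 4 in T-47D, 7 of 17 were higher in T-47D than in Ishikawa and 5 lower, and 7 of 17 were higher in LNCaP than in Ishikawa and 7 lower.

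**Figure D5:**
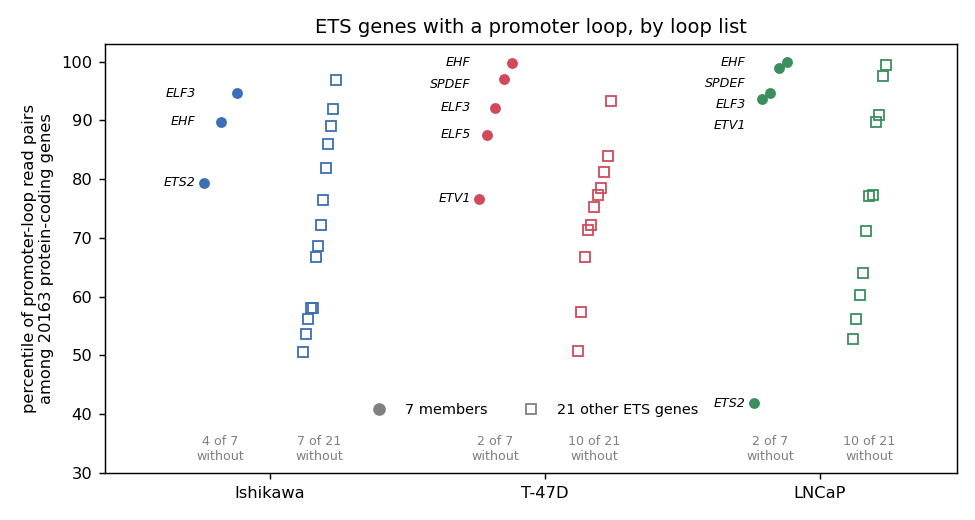
Percentile of promoter-loop read pairs among 20163 protein-coding genes for the 7 genes described (filled circles, named) and the 21 other ETS genes (open squares) in Ishikawa, T-47D and LNCaP. Only genes with a promoter loop are drawn, and grey text counts those without one; EHF stood at 99.8 in T-47D and 99.9 in LNCaP.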

How the data were processed

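Established cell lines Ishikawa (4 samples), T-47D (1) and LNCaP (2) were assayed by H3K27ac HiChIP. The authors aligned reads to hg19 with HiC-Pro, as the submitters' processing notes also name, called loops with hichipper, removed loops with few reads or a high false discovery rate and combined samples, and the deposited value of a loop is a raw count of read pairs, not scaled for depth. Sequencing was deeper and reads shorter for Ishikawa than for the other lines. The lists were not filtered alike, since 85020 rows of Ishikawa and 15042 of T-47D had the same anchor on both sides and LNCaP had none, and they were left out of loops, as were 70 T-47D rows across chromosomes. Read pairs were summed over the 4 parts of the Ishikawa list. The median anchor was 5.10 kb wide for Ishikawa, 2.61 kb for T-47D and 3.23 kb for LNCaP, and every anchor edge at the 7 genes fell on a GATC site of GRCh37.

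Start sites came from the GENCODE annotation of GRCh37. A list without loops of a gene was set to a floor of 3 read pairs, or 0.288, 0.854 and 0.166 per 100000 in Ishikawa, T-47D and LNCaP; the two-sided Clopper-Pearson limit of a 0 was higher, at 0.355, 1.05 and 0.204, and neither covers loops removed before deposit. Ratios were computed for genes with more than 3 read pairs in 1 of the lists, and counting intervals were Clopper-Pearson. With 1 list per line no p-value was computed. Named were all 7 genes, per gene and list the 3 distal anchors and 3 partner promoters with the most read pairs, 5 genes most like SPDEF, and other ETS genes in the top 5%; 1 partner promoter is not reported here. The genes, lists and rules were chosen with earlier results of these data known. Alternatives were minima of 5, 10 and a depth-scaled number of read pairs, windows of 2 kb, 1 start site per gene, protein-coding transcripts only, spans of 20 kb to 1 Mb, Ishikawa loops in 2 or more parts and a 50% overlap. Read pairs per kb of anchor, not scaled for depth, were added after the data were seen. Linking was tested on simulated data. Python 3.11.15, numpy 2.4.6, pandas 2.3.3, scipy 1.17.1 and matplotlib 3.10.9 were used.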

Additional observations from a re-analysis of the deposited data

Results flagged for a closer look

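Rows that joined an anchor to itself were outside all comparisons, and at the 7 genes some held more than the floor of 3 read pairs. At EHF, read pairs within 1 promoter anchor numbered 221 in T-47D and 30 in Ishikawa. At ELF5 they numbered 27 and at SPDEF 15 in T-47D. At ELF3 they numbered 15 in Ishikawa and 4 in T-47D, at ETV1 10 in T-47D, and at ETS2 10 in Ishikawa and 8 in T-47D, where ETS2 had no loop to another anchor. The LNCaP list held no such rows, so the absence of these read pairs there is not a measurement.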

How the results depend on the processing

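Of 102 recomputed counts of genes or anchors, some could not change, such as those of T-47D when only Ishikawa loops were restricted. Of the 102, 92 stayed within 1.5 times the reported count. Within this margin ELF3 lost calls against Ishikawa. Its log2 ratio for LNCaP was 0.81 and 0.88 with minima of 5 and 10 read pairs, 0.32 with spans of 20 kb to 1 Mb and 0.65 with Ishikawa loops in 2 or more parts. For T-47D it was 0.87 with the depth-scaled minimum and 0.74 with loops in 2 or more parts. With a minimum of 10 read pairs, 0 genes were higher in Ishikawa than in T-47D and 0 higher than in LNCaP, in place of 1 each, as ETS2 then had no loop. With the 5′ end of each gene as the only start site, 3 genes had a promoter loop and 3 a linked distal anchor in T-47D. Of the genes, 3 were then higher in LNCaP than in T-47D, 0 in T-47D than in LNCaP (ELF5 lost its loops) and 3 in T-47D than in Ishikawa. The log2 ratio of ELF3 between T-47D and Ishikawa was then -3.56, the only recomputed ratio of shares to reverse a call. With spans of 20 kb to 1 Mb, 3 genes were higher in LNCaP than in T-47D (SPDEF, EHF and ETV1). With an overlap of 50% of both anchors, 3 Ishikawa anchors were found in T-47D and 4 in LNCaP. The counts per kb of anchor were not scaled for depth and are left out of the ranges that follow. The log2 ratio of LNCaP to T-47D ranged from 0.32 to 1.18 for SPDEF, from 0.21 to 2.98 for EHF, from -0.72 to 4.58 for ELF3 and from 1.32 to 2.38 for ETV1. The depth-scaled minimum was 9 read pairs in Ishikawa and 16 in LNCaP.

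No paired analysis was possible because the lists pool the samples of each line, and for the same reason no replicate was left out. Depth limits absence in T-47D, where 3 read pairs are 0.854 per 100000. It also does so in Ishikawa, where no row of any part held fewer than 3 read pairs and the parts held 90130 to 442087 read pairs. A loop below 3 in every part would be missing from that list. Anchor widths differed between lists, so a wide promoter anchor takes in contacts that a narrow one leaves separate.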
